A study of Mus musculus with 50 samples.

Results

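Livers with high and low expression of Sqle were compared in a mouse backcross. The liver RNA-seq libraries were chosen by their measured Sqle value. All 50 were ranked by it, and the 16 highest were set against the 16 lowest, 32 libraries in all. The remaining 18 libraries lay between the groups. The rule used Sqle alone, so the Sqle values given here describe the groups and were not tested, and Sqle was left out of every comparison.

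Sqle encodes squalene epoxidase, the enzyme that oxidises squalene at a rate-limiting step of cholesterol synthesis. Its gene is a target of SREBP2, a transcription factor held in the endoplasmic reticulum by Scap and the Insig proteins while sterols are plentiful and released by cleavage in the Golgi when they are scarce. The same factor drives most enzymes of the pathway, and the liver is a main site of cholesterol synthesis, of its uptake from plasma and of its conversion to bile acids.

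All animals came from 1 cross, in which B6.A4 and B6.A6 mice were each first crossed to C57BL/6J (B6) and their offspring then intercrossed, so that only chromosomes 4 and 6 carried segregating A/J alleles on a B6 background. The labels call the mice adult male F2 animals, whereas the study's methods call the generation N2 and put their age at 5 weeks. The mice were fasted overnight, and RNA came from the caudate lobe of the liver. No treatment separated the animals, and their genotypes were not used here. Each library held 9430126 to 24355042 reads counted in genes (median 10791083). Values are the authors' normalised read counts, scaled to a like total in each library, in which 1 read was worth 0.0317 to 0.0864. The 50 libraries carried 48 distinct animal numbers. One of the shared numbers marked library 10, which was high, and library 8, which lay between the groups, and the other marked the high libraries 22 and 55. Whether those pairs came from the same animals is not given in the sources used here, and p-values measure the spread between these libraries.

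Promoters of 3 pathway genes are shown because SREBP2 acts at them together with NF-Y and Sp1, and because they belong to genes described below. Each is the 250 bases before the RefSeq transcription start in GRCm38.p6. Capitals mark 3 motifs searched on both strands, the sterol regulatory element TCACNCCAC, the NF-Y box CCAAT and the Sp1 box GGGCGG. Hmgcs1 lies on the plus strand (chr13:119690101-119690350), Msmo1 on the minus strand (chr8:64733579-64733828) and Idi1 on the plus strand (chr13:8885356-8885605).
Hmgcs1: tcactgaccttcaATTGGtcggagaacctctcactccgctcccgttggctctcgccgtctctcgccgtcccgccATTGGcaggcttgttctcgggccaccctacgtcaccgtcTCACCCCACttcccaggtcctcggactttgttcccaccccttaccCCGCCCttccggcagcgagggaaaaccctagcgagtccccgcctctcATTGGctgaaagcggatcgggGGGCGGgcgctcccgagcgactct
Msmo1: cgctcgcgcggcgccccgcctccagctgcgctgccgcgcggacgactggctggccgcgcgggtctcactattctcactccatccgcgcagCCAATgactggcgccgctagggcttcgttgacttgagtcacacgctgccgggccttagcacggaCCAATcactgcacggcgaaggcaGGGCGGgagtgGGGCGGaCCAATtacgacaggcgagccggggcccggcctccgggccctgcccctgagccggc
Idi1: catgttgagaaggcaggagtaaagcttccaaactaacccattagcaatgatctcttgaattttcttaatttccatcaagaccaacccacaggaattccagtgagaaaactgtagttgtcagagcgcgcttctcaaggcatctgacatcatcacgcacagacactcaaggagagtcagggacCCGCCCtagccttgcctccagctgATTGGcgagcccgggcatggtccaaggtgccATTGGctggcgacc

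The Hmgcs1 sequence held 1 TCACNCCAC match, whose first base lay 137 bases before the start, with 3 CCAAT and 2 GGGCGG matches. The Msmo1 sequence held 3 CCAAT and 2 GGGCGG matches, and the Idi1 sequence held 2 and 1. Over windows that also took in the first transcribed bases (300 bases), TCACNCCAC was present for 1 of the 18 genes matched, out of 23 sought (the 22 genes of the cholesterol synthesis list and Sqle), against 1.44% of 27025 genes. CCAAT was present for 16 of those 18 genes against 41.1% of all genes, and GGGCGG for 16 of them against 38.2%. A match describes the letters only, and Sqle was not among the genes matched.

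Sqle (ENSMUSG00000022351, chr15:59315077-59331192, plus strand, GRCm38) ran from 0.226 to 3.102 over the 50 livers, a 13.7-fold range, with a mean of 1.09 ± 0.592 (SD). In the high group the lowest value was 1.31, the median 1.59 and the highest 3.102, from 18 to 56 reads per library. In the low group the lowest was 0.226, the median 0.5998 and the highest 0.729, from 3 to 14 reads. The ratio of the group means was 3.30, which follows from the ranking. The 18 livers between them spanned 0.740 to 1.26.

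Few reads stood behind each Sqle value. Counting error amounted to 21.1% of the variance of Sqle over all livers. Within a group the ranking itself narrows the variance of Sqle, so no such share is given there. The last library inside the high group had a value of 1.31 from 26 reads (95% Poisson interval 0.853 to 1.91), and the first library outside it had 1.26 from 15 reads (0.702 to 2.07). At the other limit, the last low library had 0.729 from 14 reads (0.398 to 1.22) and the next library above it 0.740 from 10 reads (0.355 to 1.36). The intervals of 12 high libraries reached below the high limit, those of 0 reached the low limit, and the interval of 1 low library reached the high limit. These intervals cover counting error only. The coefficient of variation of Sqle was 54.2%, against a median of 34.1% in the 200 genes of most similar mean. Of those 200 genes 91% varied less.

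**Figure D1:**
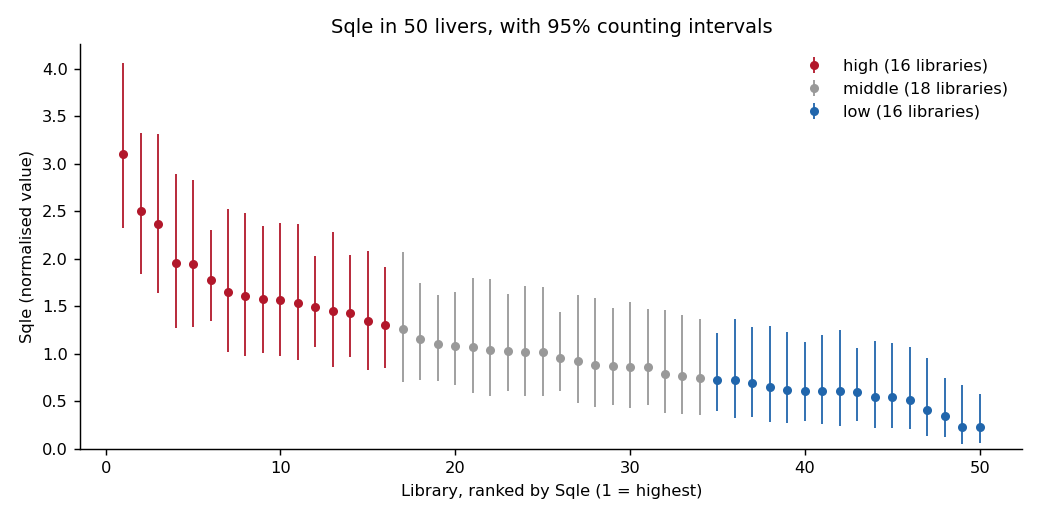
Normalised Sqle value (y axis) of each of the 50 liver libraries, ranked from highest to lowest (x axis). Points are libraries, coloured by group, and vertical lines are 95% Poisson intervals of the read count. The 16 high libraries sit between 1.31 and 3.102 and the 16 low libraries between 0.226 and 0.729, and the intervals of neighbouring libraries overlap at both limits.

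The groups were compared in 4 library properties with 2-sided permutation tests, adjusted over the 4. Reads in genes averaged 13187500 in the high group and 11448300 in the low group (p = 0.156, adjusted p = 0.312). The share of the 10 highest genes was 21.5% ± 1.41 (SD, n = 16) against 21.4% ± 1.18 (p = 0.817), and the mean animal number was 200.1 against 209.6 (p = 0.579, adjusted p = 0.772). A score of sex-dependent genes, the mean standardised level of 13 male-high genes less that of 7 female-high genes, was -0.50 ± 2.03 in the high group and 0.64 ± 0.85 in the low group (p = 0.0438, adjusted p = 0.175). Library numbers 1 to 30 and 31 to 59 were split 8 and 8 in the high group and 9 and 7 in the low group (Fisher's exact test, 2-sided, p = 1). The share of reads that did not align uniquely, which was not tested, was 10.99% ± 2.02 in the high group and 12.6% ± 1.27 in the low group. The share of gene reads from mitochondrial genes, also not tested, was 5.10% ± 0.748 in the high group and 5.80% ± 1.19 in the low group, and its part in the results was not tested.

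The question was which other genes differed between livers high and low in Sqle. None of the 11430 genes tested passed an adjusted p of 0.05 with limma (0%). The lowest adjusted p was 0.553, for Prss8, a membrane-anchored serine protease, which is named here because its value was seen to be the extreme. At an unadjusted p under 0.05 stood 625 genes (5.47%), 337 of them higher in the high group (2.95%) and 288 lower (2.52%). edgeR on the recovered reads called 0 genes, with 668 at an unadjusted p under 0.05 (5.84%). DESeq2 on the same reads called 1 gene (0.00875%), Cyp2a4, with 678 at an unadjusted p under 0.05 (5.93%). Differences below are the mean log2(value + 0.5) of the high group minus that of the low group, a scale that understates differences of low genes, and were above 0 for 48.1% of all genes.

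Of the 22 genes listed for cholesterol synthesis beside Sqle, 21 were tested, and 0 passed in either direction. Fdps was not analysed here. The difference was above 0 for 19 of the 21 genes and below 0 for 2, with a median of 0.11 against -0.004 over all genes. It ranged from -0.09 to 0.28. All 21 intervals excluded a 2-fold difference in either direction, as did those of 99.3% of all genes tested. Their lowest bound was -0.20 and their highest 0.61, so smaller differences remained within the intervals.

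The early steps build the isoprenoid units. Hmgcs1, which makes HMG-CoA, ran from 29.7 to 64.1 in the high group (median 44.9) and from 28.4 to 58.1 in the low group (median 38.6). Its difference was 0.15 (95% interval -0.04 to 0.34, limma adjusted p = 0.943), and the groups overlapped over most of their range. The phosphorylating enzymes Mvk and Pmvk differed by 0.13 and 0.12 and the decarboxylase Mvd by 0.14, each with an interval that included 0. Acat2, the thiolase that starts the route, differed by 0.06 (-0.05 to 0.17).

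Idi1, the isomerase of the 5-carbon isoprenoid units, had the widest difference of the list. Its values ran from 0.459 to 3.34 in the high group (median 1.91) and from 0.735 to 2.07 in the low group (median 1.38). The difference was 0.28 (-0.06 to 0.61, limma adjusted p = 0.940). Values of 7 high livers lay above all low livers, but the lowest Idi1 value of the 32 livers was also in the high group. The SD was 0.892 in the high group and 0.425 in the low group.

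The 2 differences below 0 in the list were those of Ggps1 and Fdft1, each with an interval that included 0. Ggps1, which makes geranylgeranyl diphosphate for protein prenylation and not for sterols, differed by -0.09 (-0.20 to 0.02), and Fdft1, the squalene synthase that supplies the substrate of Sqle, by -0.02 (-0.20 to 0.16). Fdft1 ran from 23.3 to 45.4 in the high group (median 35.9) and from 27.5 to 54.0 in the low group (median 38.2), so the groups overlapped almost entirely.

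After squalene, Lss closes the sterol ring and had a difference of 0.06 (-0.09 to 0.21). Cyp51, the lanosterol demethylase, had a difference of 0.11 (-0.07 to 0.30), and the sterol reductases Tm7sf2 and Lbr had 0.13 and 0.09. Msmo1, the oxidase that begins removal of the methyl groups, ran from 10.6 to 27.6 in the high group (median 14.9) and from 8.01 to 19.2 in the low group (median 12.9). Its difference was 0.23 (0.007 to 0.45), with an unadjusted p of 0.0434 and a limma adjusted p of 0.908. Values of 2 high livers lay above all low livers and 3 low livers lay below all high livers, the rest overlapping.

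Dhcr7, which completes cholesterol on the alternative branch, differed by 0.13 (-0.07 to 0.34). The remaining late enzymes Nsdhl (0.11), Hsd17b7 (0.02), Ebp (0.06) and Sc5d (0.02) and the scaffold Erg28 (0.01) all had intervals that included 0.

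**Figure D2:**
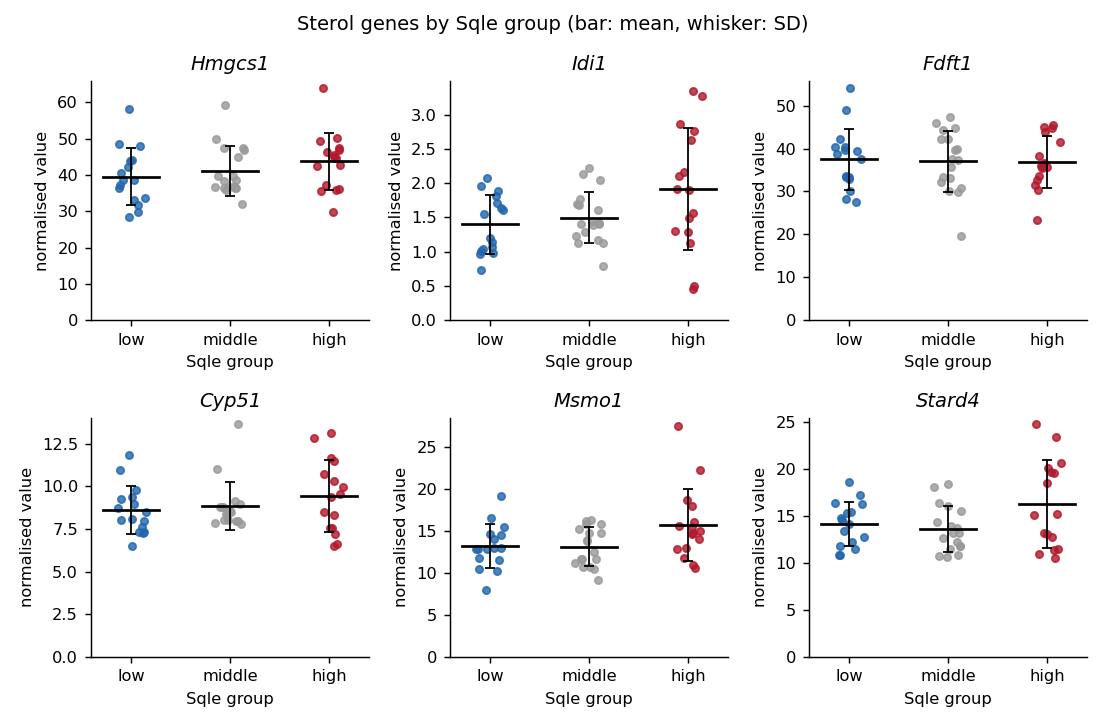
Normalised values (y axis, starting at 0) of 6 sterol genes in the low, middle and high Sqle groups (x axis). Points are libraries (16, 18 and 16), horizontal bars are group means and whiskers are SDs. Groups overlap in every panel, with Idi1 spread from 0.459 to 3.34 in the high group against 0.735 to 2.07 in the low group.

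Genes that regulate the pathway were no further apart. Of 18 listed, all were tested, 0 passed, and 12 differences were above 0 and 6 below, with a median of 0.04. Srebf2, the gene of SREBP2, ran from 20.6 to 28.9 in the high group (median 24.9) and from 18.7 to 26.01 in the low group (median 23.9), with a difference of 0.07 (-0.04 to 0.17). Scap, the escort protein, differed by 0.01 (-0.09 to 0.11). Insig1, a retention protein that is itself an SREBP target, differed by 0.17 (-0.11 to 0.45) and Insig2 by -0.06 (-0.36 to 0.24). Srebf1, whose main liver product drives fatty acid synthesis, had the lowest difference at -0.21 (-0.64 to 0.22). The widest positive difference was that of Rnf145, an ubiquitin ligase of the endoplasmic reticulum, at 0.17 (-0.01 to 0.36).

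Among 18 genes of sterol uptake and transport, 0 passed, 8 differences were above 0 and 10 below, and the median was -0.02. Stard4, a sterol carrier, ran from 10.5 to 24.7 in the high group (median 15.1) and from 10.8 to 18.6 in the low group (median 14.4), with a difference of 0.16 (-0.06 to 0.39). Values of 6 high livers lay above all low livers. Rdh11, a retinol dehydrogenase, was the member with an unadjusted p under 0.05, at 0.16 (0.03 to 0.30, unadjusted p = 0.0202, limma adjusted p = 0.866). Apob, the structural protein of VLDL, and Mttp, which loads it with lipid, had differences of -0.07 and -0.05.

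**Figure D3:**
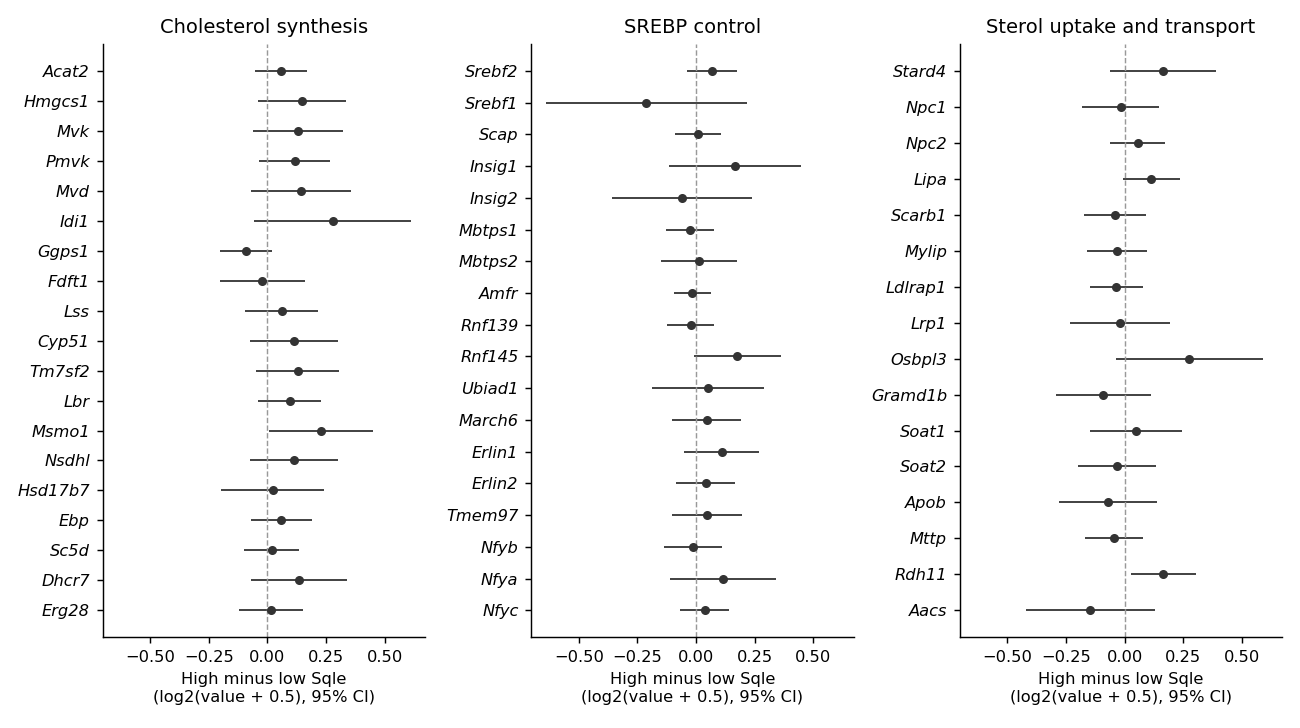
Difference between the high and low Sqle groups in log2(value + 0.5) (x axis) for genes of 3 lists (y axis), with 95% limma intervals as horizontal lines. Of the cholesterol synthesis genes drawn, 17 of 19 points lie above 0, and most intervals cross 0 in all 3 panels.

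Over the 50 livers, Spearman correlations of the 21 cholesterol synthesis genes with Sqle had a median of 0.17, from -0.23 for Ggps1 to 0.35 for Msmo1, against a median of -0.002 over all genes tested. Among the 210 pairs of these 21 genes the median was 0.07, from -0.51 for Pmvk with Ggps1 to 0.69, and 7 pairs reached 0.5. These values are a description over 50 libraries, and all genes of a library share its depth and scaling.

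A fit of each gene to log2(Sqle + 0.5) over all 50 livers called 0 of 11430 genes (0%), with 534 at an unadjusted p under 0.05 (4.67%). Of the 21 cholesterol synthesis genes, 19 slopes were above 0 (48.6% of all genes) and 4 had an unadjusted p under 0.05 (2.43% of all genes, in this direction), among them Idi1, Cyp51 and Msmo1. Msmo1 had a slope of 0.27 log2 units per log2 unit of Sqle (unadjusted p = 0.000912, limma adjusted p = 1.00).

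The 18 livers between the groups, which the first comparison did not use, were fitted in the same way. There 0 genes passed (0%) and 388 had an unadjusted p under 0.05 (3.39%). Slopes were above 0 for 10 of the 21 cholesterol synthesis genes, against 50.3% of all genes. The 3 members with an unadjusted p under 0.05 all had slopes below 0 (1.69% of all genes, in this direction), at -0.90 for Idi1, -1.03 for Fdft1 and -0.99 for Nsdhl. The ranking left Sqle spanning only 0.740 to 1.26 in these livers, so these slopes rest on a narrow range. The relation with Sqle was also compared between library numbers 1 to 30 and 31 to 59, and 0 genes passed the interaction test (0%), with 279 at an unadjusted p under 0.05 (2.44%).

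Lipid pathways next to sterol synthesis had medians close to that of all genes. Of 17 fatty acid synthesis genes tested, 9 differences were above 0, the median was 0.0003, and Fasn, the fatty acid synthase, differed by 0.0003 (-0.30 to 0.30). Fads1, a desaturase of polyunsaturated fatty acids, ran from 122 to 251 in the high group (median 156) and from 102 to 165 in the low group (median 139), with a difference of 0.23 (0.06 to 0.40, unadjusted p = 0.00911, limma adjusted p = 0.831). Values of 6 high livers lay above all low livers. Of these, 5 are among the 6 high libraries that stood apart in sex-dependent genes (10, 15, 18, 22, 24 and 45, described below). With the share of reads that did not align uniquely as a covariate, the difference was 0.06. Of 9 genes of LXR and sterol efflux, 2 differences were above 0 and 7 below, with a median of -0.05. The paired canalicular sterol transporters Abcg5 and Abcg8 had differences of -0.12 and -0.19, with intervals that included 0.

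Bile acid genes had 5 differences above 0 and 11 below among 16, with a median of -0.02. Cyp7a1, the rate-limiting enzyme of the classic route, differed by 0.01 (-0.46 to 0.49). Akr1d1, a reductase of bile acid intermediates, differed by 0.19 (0.02 to 0.35, unadjusted p = 0.0283, limma adjusted p = 0.889). Cyp7b1, the oxysterol hydroxylase of the alternative route, is also a male-high gene of mouse liver and is described with those.

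Fasting and daily time were looked at because both act on hepatic sterol synthesis. Among 22 PPARA and fat oxidation genes 8 differences were above 0, with a median of -0.02, and Fgf21, a hormone of the fasted liver, differed by 0.58 (0.01 to 1.15, unadjusted p = 0.0470, limma adjusted p = 0.908). Its values ran from 0.644 to 8.59 in the high group and from 0.491 to 4.49 in the low group. The 4 high livers above all low livers, 15, 18, 24 and 45, all belong to those that stood apart in sex-dependent genes, and with the share of not uniquely aligned reads as a covariate the difference was 0.20. Among 14 genes of fasting and glucose, 9 differences were above 0, with a median of 0.06. Of 17 clock genes tested, 5 were above 0 and 12 below, with a median of -0.09, and 0 had an unadjusted p under 0.05. A score of clock output genes, the mean standardised level of 5 of them, was -0.01 ± 1.09 in the high group and 0.34 ± 0.68 in the low group, a difference that was not tested. Time of collection is not given in the sources used here.

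Stress and acute phase genes were included for the state of the tissue. Of 15 stress and chaperone genes, 5 differences were above 0, with a median of -0.08 and 0 at an unadjusted p under 0.05. Of 12 acute phase genes, 8 were above 0, with a median of 0.06. Orm1, an acute phase glycoprotein, ran from 158 to 499 in the high group (median 393) and from 348 to 774 in the low group (median 448). The difference was -0.42 (-0.67 to -0.16, unadjusted p = 0.00222, limma adjusted p = 0.820), and 6 high livers lay below all low livers. Of these, 5 belong to the libraries that stood apart in sex-dependent genes, and with the share of not uniquely aligned reads as a covariate the Orm1 difference was -0.19. Orm2 had a difference of -0.44 and Il1rn, the interleukin-1 receptor antagonist, of 0.36, each with an unadjusted p under 0.05. The highest Il1rn values of the high group, 7.82 to 15.8, were those of libraries 10, 15, 18, 22, 24 and 45, which stood apart in sex-dependent genes.

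**Figure D4:**
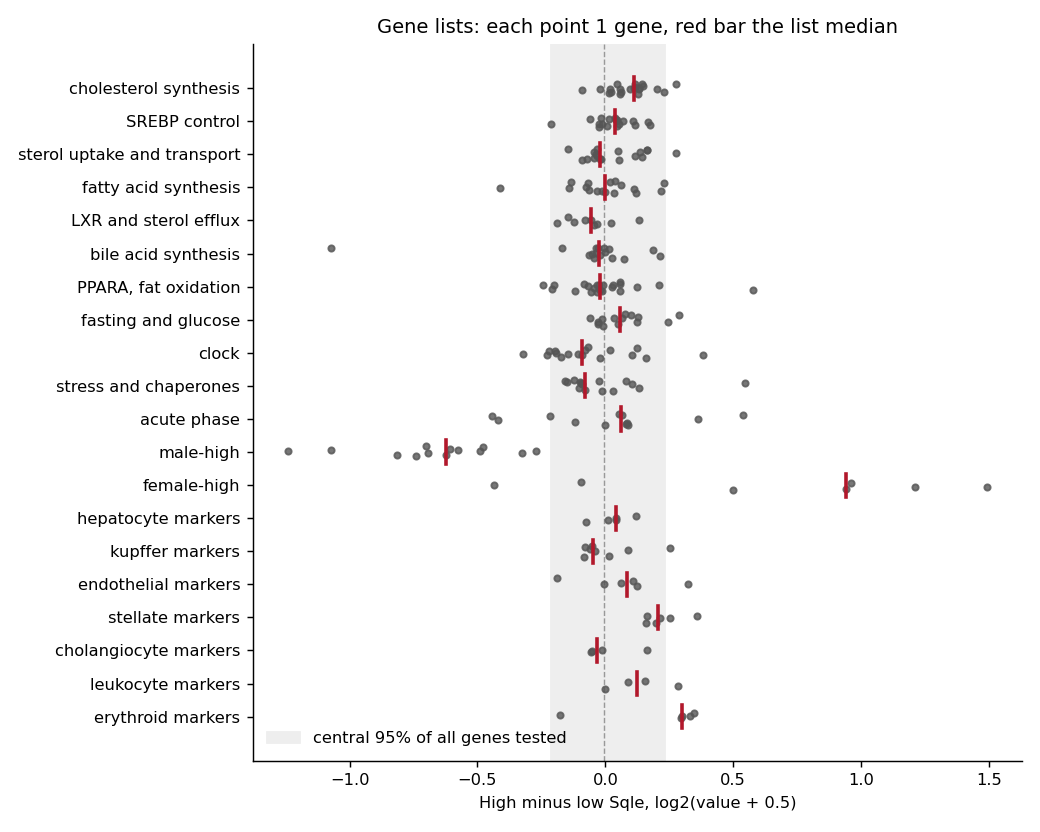
Difference between the high and low Sqle groups in log2(value + 0.5) (x axis) for the tested genes of 20 lists (y axis). Each point is 1 gene, each red bar a list's median, and the grey band holds the central 95% of all genes tested. The male-high genes lie lowest, with a median of -0.62, and the cholesterol synthesis genes have a median of 0.11.

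Genes known to differ between the sexes in mouse liver, mostly through the pattern of growth hormone release, held the widest differences of the lists. All animals are labelled male. Of 13 male-high genes 0 passed, all 13 differences were below 0, 9 had an unadjusted p under 0.05 (2.52% of all genes, in this direction), and the median was -0.62. Of 15 female-high genes 7 were tested, 5 lay under the filter on low values and 3 were not analysed here. Among the 7, 5 differences were above 0 and 2 below, with a median of 0.94.

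Cyp2d9, a male-type steroid hydroxylase, ran from 349 to 2093 in the high group (median 1511) and from 1430 to 2118 in the low group (median 1873). The difference was -0.62 (-0.9998 to -0.25, unadjusted p = 0.00195, limma adjusted p = 0.812). Elovl3, a fatty acid elongase, ran from 3.35 to 231 in the high group (median 47.8) and from 26.9 to 179 in the low group (median 85.1), with a difference of -1.24 (-2.17 to -0.31). For each of these genes 7 high livers lay below all low livers, while the others overlapped with the low group. This was not particular to the high group. Middle libraries 1, 6, 12, 27, 49, 56, 57 and 59 lay below all low livers in Cyp2d9, and 49 and 57 in Elovl3. Cyp7b1 ran from 6.97 to 170 in the high group (median 56.3) and from 30.9 to 156 in the low group (median 87.0), with a difference of -1.07 (-1.84 to -0.30).

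On the female-type side, Cyp2a4, a steroid hydroxylase, ran from 0.627 to 77.2 in the high group (median 5.37) and from 0.757 to 9.59 in the low group (median 2.99). Its difference was 1.21 (0.09 to 2.33, unadjusted p = 0.0356, limma adjusted p = 0.899), and DESeq2 gave 2.61 with an adjusted p of 0.0301. Values of 7 high livers lay above all low livers, and 2 lay below them. Those of middle libraries 1, 6, 12, 25, 27, 49, 57 and 59 also lay above all low livers. Cyp2b9 ran from 0.0765 to 193 in the high group (median 2.103) and from 0.164 to 11.7 in the low group (median 1.06), with a difference of 1.49 (0.13 to 2.86). Cyp17a1, a hydroxylase and lyase of steroid synthesis, differed by 0.94 (0.09 to 1.79).

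The same livers carried these values. Libraries 10, 15, 18, 22, 24 and 45, all of the high group, lay below every low liver in both Cyp2d9 and Elovl3, and all 6 lay above every low liver in Cyp2a4. The share of reads that did not align uniquely was below the low group's lowest, 10.99%, in 5 of these 6 libraries and in 7 of the 16 high libraries. It was also below that value in middle libraries 1, 6, 12, 23, 25, 27, 28, 49, 57 and 59. Reads that did not align uniquely were tallied apart from the genes. Several of the genes named belong to families of closely similar copies, and the part of that share in the differences was not tested. With it as a covariate, the male-high median was -0.09 and the female-high median -0.10. The share was itself low in most of the high libraries that stood apart, so adjusting for it may also take out what sets them apart. Without library 24, which was lowest of all in Cyp2d9 within the groups, the medians were -0.50 and 0.67. Female-high genes higher at an unadjusted p under 0.05 numbered 3 with all libraries (2.95% of all genes, in this direction). They numbered 0 without library 24 and 0 without the libraries that share an animal number. Without library 24 the difference was 1.00 for Cyp2a4, 1.15 for Cyp2b9 and 0.84 for Cyp17a1.

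Within library numbers 1 to 30 the male-high median was -1.02 and the female-high median 1.33. Within numbers 31 to 59 the medians were -0.29 and -0.05, and 3 of the 7 female-high differences were above 0. Of the high libraries that stood apart, all but 45 carry numbers 1 to 30. In the 18 livers between the groups, slopes were above 0 for 10 of the 13 male-high genes, opposite to the direction between the groups.

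**Figure D5:**
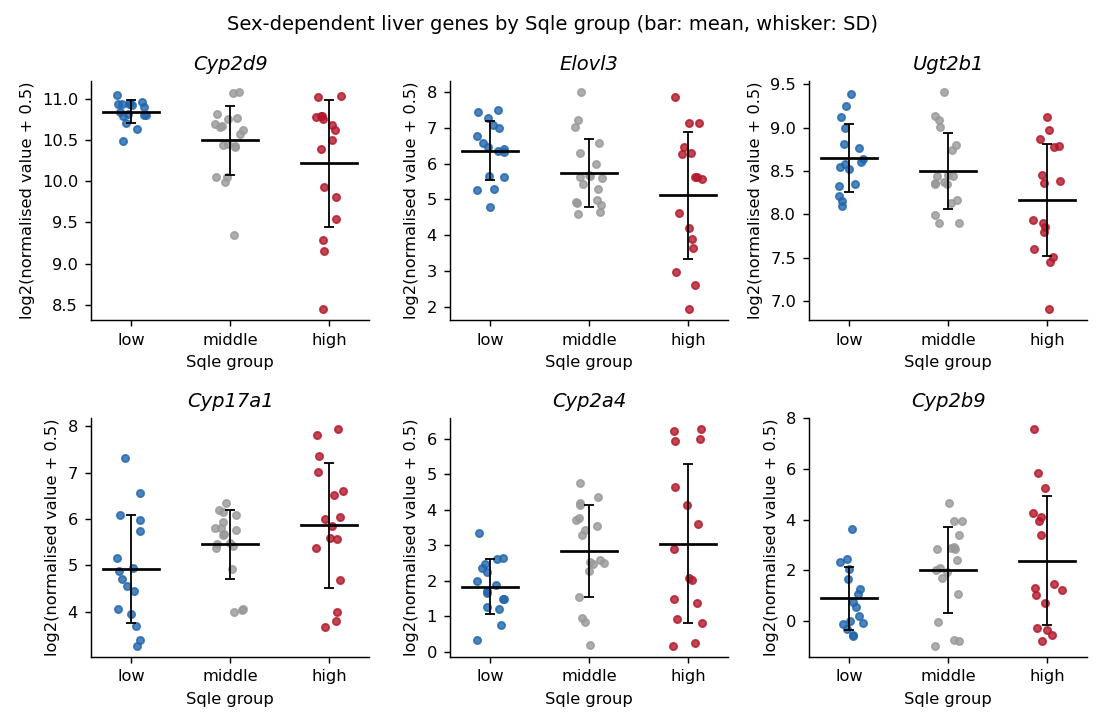
Values of 3 male-high genes (top row) and 3 female-high genes (bottom row) as log2(normalised value + 0.5) (y axis, a log scale) in the low, middle and high Sqle groups (x axis). Points are libraries, horizontal bars are group means and whiskers are SDs. A tail of high libraries lies below all low libraries in Cyp2d9 and Elovl3 and above them in Cyp2a4, while most others overlap. Middle libraries 49 and 57 lie past the low group in the same way in Cyp2d9, Elovl3 and Cyp2a4. Libraries 1, 6, 12, 27 and 59 of the middle group do so in Cyp2d9 and Cyp2a4 but not in Elovl3.

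Markers of the cell types a liver piece can hold were set beside the groups. In bulk tissue, fewer cells of a type and less RNA per cell cannot be told apart. Hepatocyte markers, which include Alb (albumin), had summed values of 78299 to 111111 in the high group and 71835 to 118547 in the low group, so the labelled tissue carried its defining genes in both. Of the 5 hepatocyte markers 4 differences were above 0, with a median of 0.04. Summed Kupffer cell markers (8 genes) ran from 271 to 447 in the high group and from 293 to 450 in the low group, and their median difference was -0.05.

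The stellate cell markers had differences above 0 for 6 of 6 genes, with a median of 0.21, and 0 passed. Col3a1, a fibrillar collagen, ran from 17.3 to 75.8 in the high group (median 42.6) and from 16.7 to 63.6 in the low group (median 31.7), with a difference of 0.36 (0.001 to 0.71, unadjusted p = 0.0491, limma adjusted p = 0.908). Dcn, the proteoglycan decorin, differed by 0.21 (0.004 to 0.43, unadjusted p = 0.0457). With all libraries, 2 stellate markers were higher at an unadjusted p under 0.05 (2.95% of all genes, in this direction). Without library 24 this number was 0. It was also 0 without the libraries that share an animal number, and with the sex-dependent score or the share of not uniquely aligned reads as a covariate. Summed stellate markers ran from 124.6 to 295 in the high group and from 124.8 to 212 in the low group. In the 18 livers between the groups 2 of these 6 slopes were above 0.

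Endothelial markers summed to 176.1 to 252 in the high group and 168 to 220.7 in the low group. Of the 6 genes, 4 differences were above 0, with a median of 0.08, and members went both ways, with Lyve1 at 0.32 (0.02 to 0.63) and Clec4g, a lectin of sinusoidal endothelium, at -0.19 (-0.36 to -0.02). Bile duct markers (4 tested, sums 16.99 to 41.8 and 22.6 to 38.8) had a median of -0.03. Leukocyte markers (4 tested, sums of 5 genes 49.98 to 96.8 and 43.04 to 86.0) had a median of 0.12. Erythroid markers (5 genes, sums 130 to 302 and 94.7 to 278) had a median of 0.30, with Alas2, the heme synthesis enzyme of red cells, at -0.18. No summed marker had a median of 0, but the authors had already removed low genes. The bile duct marker Krt7 and the leukocyte markers Cd3e and S100a8 were not analysed here. The part of these cell types in any result above was not tested.

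Genes most like Sqle over the 50 livers were ranked by Spearman correlation. The 10 highest were 2210408I21Rik (0.50), P3h3 (0.49), Rerg (0.48), Bicc1 (0.46), Adamtsl2 (0.43), Cnn2 (0.43), Anxa1 (0.43), Tmem43 (0.43), Sdccag8 (0.42) and Pygb (0.42). Among the 5 lowest were Ykt6 (-0.48), Socs6 (-0.48), Grk6 (-0.44) and Prkcd (-0.43). No gene of the 3 sterol lists was among them. Several have known roles outside sterol synthesis, such as Anxa1, a phospholipid-binding protein, Pygb, a glycogen phosphorylase, and Ykt6, a SNARE of vesicle fusion. Bicc1, an RNA-binding protein, ran from 2.60 to 4.79 in the high group (median 3.74) and from 1.94 to 3.84 in the low group (median 2.54), and 7 high livers lay above all low livers. These genes were picked for their likeness to Sqle, so their differences between the groups were not read as a test.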

How the data were processed

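Liver RNA-seq libraries of the cross were taken from 1 table deposited for the whole series. Per the study's methods and the submitters' processing notes, the authors trimmed the reads, aligned them with Hisat2 to GRCm38.p5, counted them per gene with HTSeq (0.11.1), removed low genes and normalised with edgeR. The deposited values are a normalised expression signal whose columns sum to 886171 to 1120647. They include 5 rows that name no gene (17.0 to 25.3% of a library's counted reads), which were left out of totals and tests. Dividing each value by that of 1 read gave whole reads for 100% of values within 0.01, and a floor of 3 reads corresponds to 0.0951 to 0.259.

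Of 12180 genes, 11431 had a mean value of at least 1, and 11430 were tested without Sqle. The high and low groups were compared with limma 3.58.1 in R 4.3.3 on log2(value + 0.5), 2-sided, with Benjamini-Hochberg adjustment over all genes and calls at an adjusted p under 0.05. DESeq2 1.42.0 and the quasi-likelihood test of edgeR 4.0.16 were run on the recovered reads as alternatives. Library properties were compared by permutation tests with 100000 resamples. The fits were tested on simulated data. Named were the genes of the 3 sterol lists, up to 4 genes of each other list with the smallest p, any further genes that passed (there were 0), and the 10 most and 5 least like Sqle by Spearman correlation. Other genes were named after their values were seen, and a few genes that the rule names are not reported here. The members and the gene lists were chosen with earlier results of these data known. Alternatives covered the pseudocount, filter, scaling, tool, group size, ranking gene, covariates and libraries left out, and 3 of them (each set of library numbers alone and the share of not uniquely aligned reads as covariate) were added after seeing the data. Columns of authors' comparisons were not used here.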

Additional observations from a re-analysis of the deposited data

How the results depend on the processing

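The count of genes that passed the adjusted threshold was 0 under all alternatives run except DESeq2, which called 1 gene higher (Cyp2a4). Genes at an unadjusted p under 0.05 numbered 625, and 349 with 12 livers a group, 940 with animal number as covariate, 397 with a mean value of at least 5, 1023 when livers were ranked by Idi1 in place of Sqle, 310 with the score of sex-dependent genes as covariate, 326 within library numbers 31 to 59 and 268 with the share of not uniquely aligned reads as covariate. The causes were not tested. Differences of the cholesterol synthesis genes were above 0 for 16 of 21 with 25 livers a group and within either set of library numbers, for 20 with plain CPM and for 14 of 16 with the stricter filter. Their median stayed between 0.06 and 0.14. No scaling moved the median of all genes by more than 0.1 on the log2 scale. No paired analysis was possible because all libraries form 1 labelled group whose replicate numbers pair no samples. Sqle itself rests on 3 to 56 reads per library, so the groups are partly set by counting error. Genes whose intervals excluded 0, such as Orm1 and Cyp2d9, still did not pass the adjusted threshold with limma. Differences of that size could therefore go uncalled.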
